A study of Saccharomyces cerevisiae with 6 samples.

Results

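The genes YRA1, DBP2, SUS1 and MTR2 of budding yeast act in mRNA export and in the assembly of mRNA with its proteins, and each had at least 1 intron among the targets of a splicing assay. They were chosen by name, and all 5 of their introns in the count table were taken, of 309 introns of 298 genes in all. The assay, MPE-seq (multiplexed primer extension sequencing), starts cDNA from a pool of primers that sit next to introns, and each read shows whether the intron was still present. The prp2-1 group (strain EJS7) carried a temperature-sensitive allele of PRP2, and the wild type (WT) group was strain EJS1, with 3 libraries each, replicates A to C. Both groups grew in YPD at 25 °C and were moved to 37 °C for 15 minutes before harvest, so WT cells had the heat shift too. Each genotype is 1 strain. The labels do not say whether the 3 libraries of a group came from separate colonies. P-values thus measure the spread between these libraries, which may be technical. The edgeR tests pool that spread over introns, almost wholly for unspliced reads, so their p-values do not rest on a single intron's libraries. Counted reads ranged from 1845258 to 2671271 per library in prp2-1 and from 1612685 to 2516774 in WT. PRP2 itself has no targeted intron, so the mutation was not checked in these counts.

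Prp2 is an ATPase that remodels the assembled spliceosome just before the first cutting step. When it does not work, introns whose spliceosomes have formed are not cut. Export follows processing: Yra1 is an adaptor that binds mRNA and recruits the export receptor, a pair of proteins formed by Mex67 and Mtr2. Dbp2 is a DEAD-box RNA helicase that helps load Yra1 and Mex67 onto new transcripts. Sus1 is a small protein shared by the SAGA coactivator, which acts at promoters, and the TREX-2 complex, which acts at nuclear pores. YRA1 is known for regulating its own expression through inefficient splicing of its intron, and DBP2 for feedback that also involves its intron.

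The introns differ in length and in the letters that the spliceosome reads, so they are shown here from the R64 genome of RefSeq, all on the transcript's strand. Capitals mark the first 6 bases, the 7-base branch site motif and the last 3 bases of an intron. The YRA1 intron (YDR381W, chrIV:1236843-1237608, plus strand) has 766 bases, of which the first 30 and the last 80 are shown. The DBP2 intron (YNL112W, chrXIV:414912-415913, plus strand) has 1002 bases and is shown in the same way. SUS1 (YBR111W-A, plus strand) has an intron 1 of 80 bases (chrII:462210-462289) and an intron 2 of 70 bases (chrII:462430-462499), both shown whole, assuming that the table numbers them from the 5′ end of the transcript.
YRA1 intron, start: GTATGTtaatacgtgaaatgagagctattt
YRA1 intron, end: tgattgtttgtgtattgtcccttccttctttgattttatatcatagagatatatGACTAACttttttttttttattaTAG
DBP2 intron, start: GTATGTtaaaattttctccatttttttatt
DBP2 intron, end: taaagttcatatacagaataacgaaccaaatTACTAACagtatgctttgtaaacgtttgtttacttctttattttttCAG
SUS1 intron 1: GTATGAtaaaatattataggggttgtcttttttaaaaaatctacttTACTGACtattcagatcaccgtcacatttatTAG
SUS1 intron 2: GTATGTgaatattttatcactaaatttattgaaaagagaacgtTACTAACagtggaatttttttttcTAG

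DBP2 and intron 2 of SUS1 hold the usual yeast letters GTATGT and TACTAAC. YRA1 has GACTAAC in place of TACTAAC, and SUS1 intron 1 differs at both places, with GTATGA and TACTGAC. Of 280 introns that could be placed on the annotation, 205 start with GTATGT (73.2%) and 231 hold TACTAAC (82.5%). GACTAAC occurs in 13 (4.64%), none of which (0) holds TACTAAC as well. GTATGA starts 8 (2.86%), and TACTGAC occurs in 5 (1.79%). DBP2 has the longest and YRA1 the third longest of the 280, where the median is 140 bases. The branch site A is 20 bases from the end of the intron in YRA1, 43 in DBP2, and 28 and 21 in introns 1 and 2 of SUS1. These are matches of letters on the transcript's strand, not mapped sites.

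Each of these 4 introns interrupts the coding sequence, and RNA that keeps the intron meets an in-frame stop soon after entering it. In YRA1, which encodes 226 residues, the stop is codon 98 and starts 7 bases into the intron. In DBP2, which encodes 546 residues, it is codon 435 and starts at base 30 of the intron. In SUS1, which encodes 96 residues, it is codon 30 for RNA that keeps intron 1. For RNA that keeps intron 2 alone, it is codon 73.

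**Figure D1:**
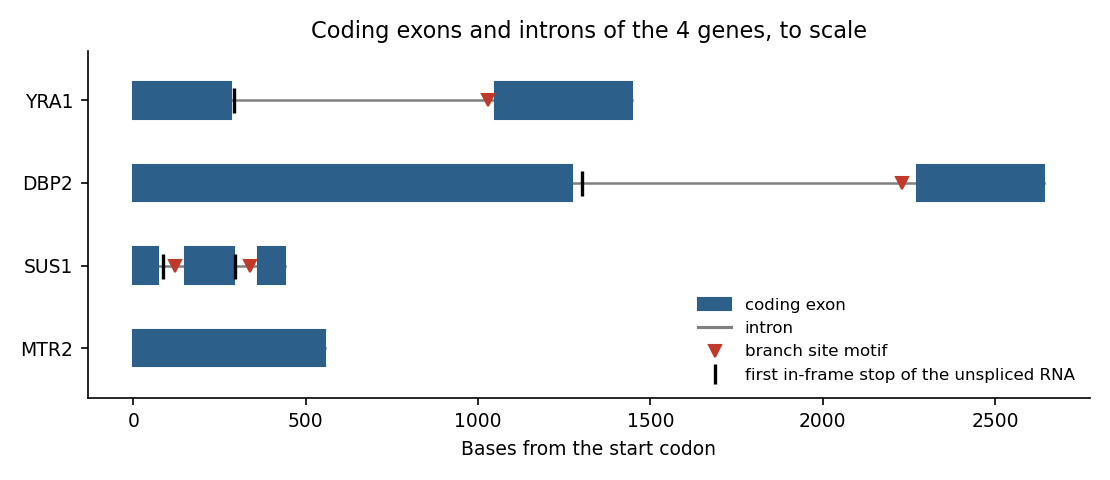
Coding exons (boxes), introns (lines), branch site motifs (triangles) and the first in-frame stop of RNA that keeps an intron (ticks), in bases from the start codon and to scale. The intron of YRA1 (766 bases) is longer than either of its coding exons, that of DBP2 (1002 bases) is longer than its second coding exon, those of SUS1 have 80 and 70 bases, and MTR2 has 1 coding exon in this annotation.

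The fifth intron, counted for MTR2 (YKL186C, chromosome XI, minus strand, coding bases 92744 to 93298), has no position here. The annotation gives MTR2 1 coding exon of 555 bases and no intron within it. The 300 bases before the start codon were searched on the transcript's strand for the letters of introns. They hold GTATGT once, 217 bases before the start codon, and TACTAAC once, 194 bases before it, as in the stretch chrXI:93486-93515 (R64, minus strand).
MTR2, before the start codon: GTATGTattgcagagattgccacTACTAAC
Of 6026 windows of 300 bases before annotated coding sequences, 402 hold GTATGT (6.67%), 171 hold TACTAAC (2.84%) and 7 hold GTATGT followed by TACTAAC (0.116%). Whether the counted intron uses these letters was not tested.

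The first comparison asked how completely each intron was removed in prp2-1 and in WT. The measure is the unspliced percent, the unspliced reads of an intron over its spliced plus unspliced reads in a library. The ratio of unspliced to spliced reads rose in prp2-1 in all 5 introns (edgeR), where 93.4% of the 274 introns tested rose. The 5 were alike in direction and unlike in size. The introns of SUS1 had log2 changes of 5.71 and 6.55, against a median of 4.64 over all tested introns. Outside ribosomal protein genes, where all 5 belong, the median was 5.39. YRA1 (2.61) and DBP2 (2.09) were below both medians. MTR2 had 4.02 with all libraries, but its place is not settled: it rests on 2 spliced prp2-1 reads, both in replicate C, and without that library the change was 6.46, against 5.46 and 6.29 for introns 1 and 2 of SUS1.

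In YRA1, the export adaptor, the 3 prp2-1 libraries A, B and C had 94.8%, 95.8% and 97.1% unspliced reads, against 78.1%, 85.2% and 74.6% in WT. The groups did not overlap, as in 92% of all tested introns, and most YRA1 reads were unspliced in every library, WT included. The means were 95.9% ± 1.13 in prp2-1 and 79.3% ± 5.41 in WT (SD over n = 3 libraries a group, as for all means that follow). Exact binomial intervals at 95% for single libraries lay between 93.1% and 97.9% in prp2-1 and between 71.3% and 87.7% in WT. They cover counting error only. Molecular identifiers are not mentioned in the sources used here, and if copies of 1 molecule were counted as separate reads, the intervals are too narrow. The log2 change of the ratio was 2.61 ± 0.38 (SE, adjusted p = 6.33e-07, edgeR). In WT, YRA1 had the 25th highest unspliced percent of 274 introns. In the size of the change it was the 232nd.

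In DBP2, the helicase gene, unspliced reads made up 38.4%, 49.5% and 50.0% in prp2-1, against 24.6%, 11.9% and 14.7% in WT. The groups did not overlap, though WT replicate A was nearer to prp2-1 replicate A than the other WT libraries were. DBP2 was the member with the fewest reads, between 319 and 378 per library in prp2-1 and between 134 and 278 in WT, so its single values are the least certain (intervals of 33.4% to 43.5% in prp2-1 replicate A and 17.6% to 32.8% in WT replicate A). The means were 46.0% ± 6.59 in prp2-1 and 17.1% ± 6.66 in WT. The log2 change of the ratio was 2.09 ± 0.43 (SE, adjusted p = 7.16e-05, edgeR), the 248th of 274. Over the 3 libraries, 567 of 1043 DBP2 reads were spliced in prp2-1, against 478 of 571 in WT. By library, 233 of 378, 161 of 319 and 173 of 346 were spliced in prp2-1 replicates A, B and C. The summed unspliced percent of DBP2 in prp2-1 (45.6%) was the 137th highest of 274, near the median of 44.9%. The median was 90.5% outside ribosomal protein genes and 2.40% within them.

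Intron 1 of SUS1, the one with the unusual letters, was 95.3%, 96.1% and 97.4% unspliced in prp2-1, against 35.6%, 33.0% and 32.0% in WT. Intron 2 was 96.4%, 92.0% and 96.7% unspliced in prp2-1, against 16.6%, 19.4% and 17.4% in WT. In each WT library intron 1 was more often retained than intron 2, while in prp2-1 the introns overlapped. In the authors' table of randomly drawn reads, intron 1 averaged 38.2% to 39.0% in WT over the 3 depths, somewhat above the full table, and DBP2 averaged 18.7% to 20.3% in WT. The log2 changes of the ratio were 5.71 ± 0.39 for intron 1 (SE, adjusted p = 1.47e-12) and 6.55 ± 0.44 for intron 2 (adjusted p = 1.15e-12, edgeR). Expressed as reads, 84 spliced reads of intron 1 and 68 of intron 2 remained over the 3 prp2-1 libraries, against 1016 and 876 in WT.

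As both introns lie in 1 transcript, their changes were compared directly. The log2 ratio of intron 1 minus that of intron 2 was 0.36 ± 0.74 in prp2-1 and 1.21 ± 0.22 in WT. The difference of the changes, intron 1 minus intron 2, was -0.85 (exact permutation p = 0.2, two-sided, where 3 against 3 libraries cannot go below 0.1). The groups overlapped, so a difference between the introns in response to prp2-1 was not detected with these libraries, and it ranged from -1.22 to -0.48 when each library was left out in turn.

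MTR2, the partner of the receptor Mex67, was counted as almost entirely unspliced in both groups. Spliced reads numbered 0, 0 and 2 in prp2-1 replicates A, B and C, against 5, 18 and 6 in WT. The unspliced reads were 2711, 3603 and 4129 in prp2-1, against 2080, 2637 and 2932 in WT. Of all MTR2 reads 0.0161% were spliced in prp2-1 on average, against 0.374% in WT. WT replicate B alone held 18 of the 29 WT spliced reads. From reads summed over libraries, the ratio of unspliced to spliced was 19.8-fold higher in prp2-1 (95% exact conditional interval 5.005 to 171, counting error only). The edgeR log2 change was 4.02 ± 0.81 (SE, adjusted p = 5.78e-05). It was 3.32 without WT replicate B and 6.46 without prp2-1 replicate C, which held both spliced reads of that group, and the call held without each library. Of 13 tested introns over 98% unspliced in WT, 3 rose in the ratio test, namely MTR2, GIM4 and YPR202W. PSP2 and APE2 did not pass. The rest had no spliced reads in either group, so no rise could be called in them.

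**Figure D2:**
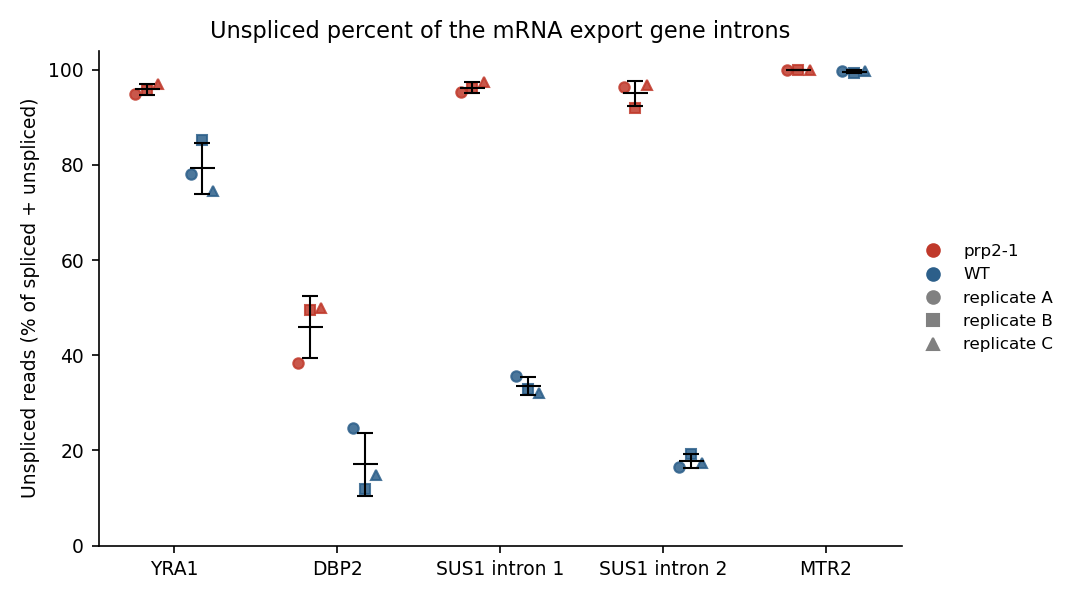
Unspliced reads as percent of spliced plus unspliced reads (y axis) for the 5 introns (x axis), prp2-1 in red and WT in blue, 1 point per library with the shape giving the replicate letter; bars show mean ± SD of 3 libraries. In prp2-1, YRA1 and both SUS1 introns sit above 92%, while DBP2 sits between 38.4% and 50.0%; in WT the 5 introns range from 11.9% in a DBP2 library to 99.8% in an MTR2 library.

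The order of the introns differed between the groups. In prp2-1, MTR2 was highest in every library, at 99.95% or more. SUS1 intron 1, YRA1 and SUS1 intron 2 followed with means of 96.3%, 95.9% and 95.05%, and DBP2 was last. SUS1 intron 1 was slightly above YRA1 in each prp2-1 library, with a difference of log2 ratios of 0.14 ± 0.05. Their binomial intervals overlapped in each of these libraries, so the order of this pair is not settled. SUS1 intron 1 minus intron 2 was 0.36 ± 0.74, and SUS1 intron 2 minus YRA1 was -0.22 ± 0.76. These last differences did not exceed their spread. In WT the order was MTR2 (99.6% ± 0.264), YRA1 (79.3% ± 5.41), SUS1 intron 1 (33.5% ± 1.86), SUS1 intron 2 (17.8% ± 1.41) and DBP2 (17.1% ± 6.66). The last pair overlapped, and the other neighbours in that order did not. DBP2 and SUS1 intron 2 thus began at like levels in WT, while in prp2-1 they stood at 46.0% and 95.05%.

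Over the 10 pairs of introns, chosen after the values were seen, the change of the log2 ratio was compared per library. For SUS1 intron 2 minus DBP2 the difference of the changes was 4.47, and for SUS1 intron 1 minus DBP2 it was 3.61. Against YRA1 the introns of SUS1 differed by 3.95 for intron 2 and by 3.10 for intron 1. In these 4 pairs the groups did not overlap (exact permutation p = 0.1 each, the smallest possible, and 0.25 adjusted over 10 pairs). How often the groups part in this way for pairs of other tested introns was not counted. YRA1 and DBP2 differed by 0.52 with overlap (exact permutation p = 0.5). No pair can pass an adjusted threshold with so few libraries.

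**Figure D3:**
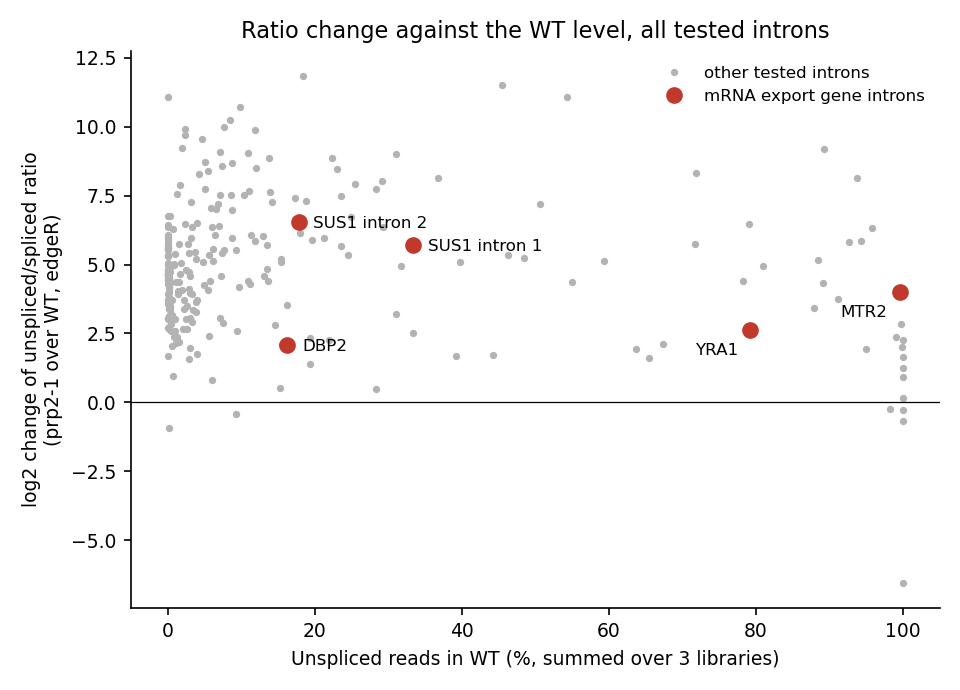
The log2 change of the unspliced to spliced ratio, prp2-1 over WT (y axis, edgeR), against the unspliced percent in WT (x axis, reads summed over 3 libraries), 1 point per tested intron, with the 5 introns of the export genes in red. DBP2 and SUS1 intron 2 share a WT level of 16.3% and 17.8% and stand at changes of 2.09 and 6.55.

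The next comparison took the ratio apart. Spliced and unspliced reads were each scaled to CPM (counts per 1000000 tested reads of the library), with TMM factors from edgeR, which adjust libraries to a common level over the bulk of introns. Such a level is relative to the other targeted introns, and levels are not compared between introns, since each has its own primer. The libraries sum over whole cultures, so fewer cells with an RNA and less RNA per cell cannot be told apart. Spliced reads fell in 4 of the 5 introns and rose in 0, where 57.7% of tested introns fell and 6.2% rose. Outside ribosomal protein genes they fell in 142 of 171, so 4 of 5 is near that background. Unspliced reads rose in 4 of the 5 and fell in 0, where 90.9% rose and 2.19% fell. DBP2 was the member whose spliced reads did not pass the test, and MTR2 the member whose unspliced reads did not.

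In SUS1, spliced reads of intron 1 were 18.4, 10.5 and 10.2 CPM in prp2-1, against 176, 179 and 145 in WT. Those of intron 2 were 9.74, 12.4 and 7.99 CPM in prp2-1, against 155, 139 and 135 in WT. Every prp2-1 library was far under every WT library. The means of prp2-1 were 0.0781 and 0.0702 times those of WT for introns 1 and 2, with log2 changes of -3.69 ± 0.26 (SE, adjusted p = 7.00e-07) and -3.82 ± 0.22 (adjusted p = 1.90e-07, edgeR). Unspliced reads of SUS1 rose by a log2 change of 2.01 ± 0.30 in intron 1 and 2.78 ± 0.33 in intron 2. The unspliced level of intron 1 averaged 340 ± 70.2 CPM in prp2-1 and 84.6 ± 15.0 in WT. Intron 2 averaged 213 ± 61.4 in prp2-1 and 30.9 ± 2.41 in WT.

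In YRA1, spliced reads were 24.9, 15.1 and 16.9 CPM in prp2-1, against 71.5, 51.8 and 77.3 in WT. The groups were apart, and the log2 change was -1.83 ± 0.26 (SE, adjusted p = 0.000136, edgeR). Unspliced reads of YRA1 were 454, 348 and 557 CPM in prp2-1, against 256, 298 and 227 in WT. They did not overlap either, with a log2 change of 0.80 ± 0.28 (adjusted p = 0.00491), a smaller rise than the median of 3.02 over all tested introns.

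DBP2 differed in its spliced reads, which were 126, 62.3 and 76.8 CPM in prp2-1, against 61.2, 69.7 and 93.9 in WT. The groups overlapped and the log2 change was 0.23 ± 0.28 (adjusted p = 0.529, edgeR). The sign of this change is not settled: it was -0.11 without prp2-1 replicate A (adjusted p = 0.735), the library with the highest value, and -0.02 when the libraries were scaled to 12 introns that were over 98% unspliced in WT. Of 171 tested introns outside ribosomal protein genes, spliced reads did not pass the test in 28 and fell in 142. Some of the 28, such as YHL050C and YJR079W, had no spliced reads. Of 103 ribosomal protein introns, spliced reads did not pass in 71 and fell in 16. Unspliced reads of DBP2 were 78.4, 61.2 and 76.8 CPM in prp2-1, against 19.99, 9.46 and 16.2 in WT, a log2 change of 2.25 ± 0.36 (adjusted p = 7.05e-10). The lowest prp2-1 library was thus over 3 times the highest WT library. Relative to the spliced reads of each other member, the spliced reads of DBP2 changed by 2.02 (YRA1) to 4.02 (SUS1 intron 2) more on the log2 scale. These 4 differences were looked at after the values were seen. In each of them the groups did not overlap (exact permutation p = 0.1, the smallest possible, also after adjustment over the 4). How often this holds for pairs of other tested introns was not counted.

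In MTR2, spliced reads averaged 0.296 ± 0.513 CPM in prp2-1 and 4.79 ± 3.63 in WT, with a log2 change of -3.75 ± 1.09 (SE, adjusted p = 0.0133, edgeR). Leaving out replicate B of WT ended this call (adjusted p = 0.0680), and so did leaving out replicate B of prp2-1 (adjusted p = 0.0524). The unspliced reads were 1466, 1395 and 1834 CPM in prp2-1, against 1260, 1313 and 1162 in WT. They were higher in all 3 prp2-1 libraries, but the log2 change of 0.33 ± 0.23 did not pass the test (adjusted p = 0.168).

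**Figure D4:**
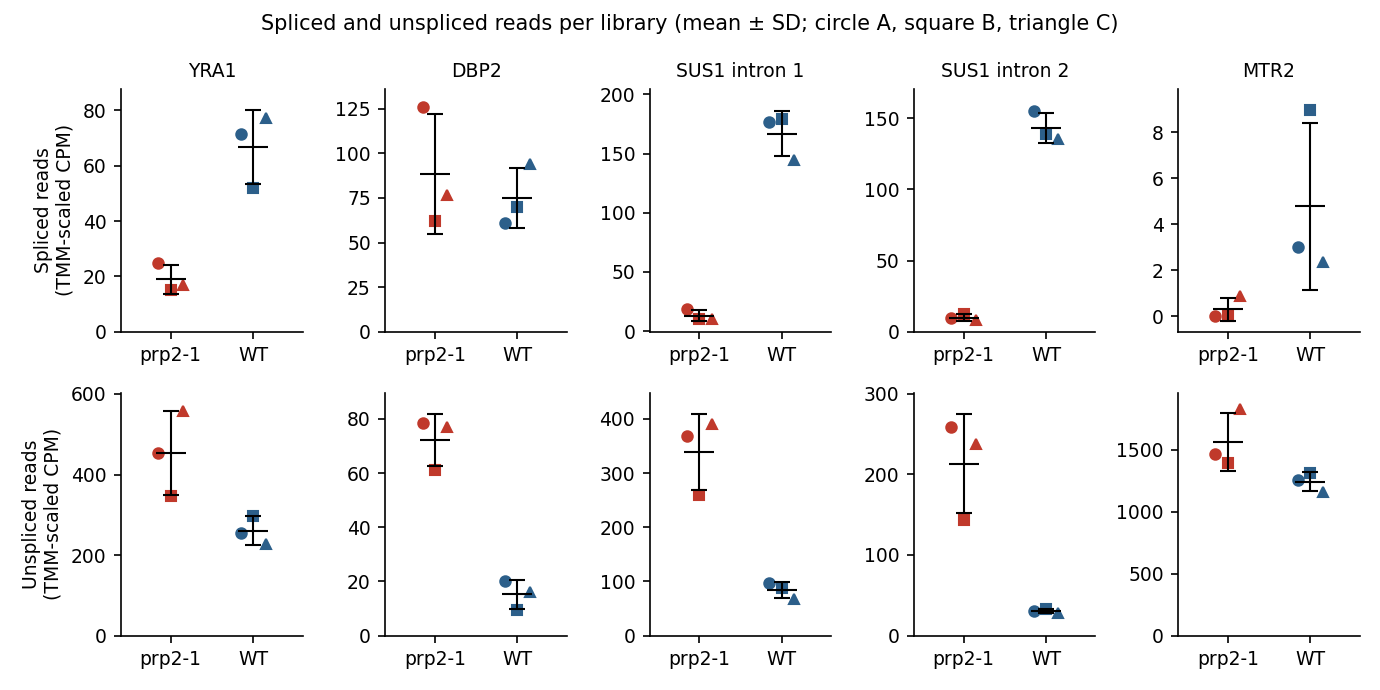
Spliced (top row) and unspliced (bottom row) reads in TMM-scaled CPM, for the 5 introns, with prp2-1 in red left of WT in blue, 1 point per library and bars for mean ± SD of 3 libraries; each panel has its own y axis. Spliced reads of DBP2 overlap between the groups (62.3 to 126 CPM in prp2-1, 61.2 to 93.9 in WT), while those of SUS1 intron 1 do not (10.2 to 18.4 CPM in prp2-1, 145 to 179 in WT).

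Total reads, spliced plus unspliced, rose in DBP2 and YRA1 and did not pass the test in the other 3 introns, where 19.7% of tested introns rose and 23.7% fell. DBP2 averaged 161 ± 40.9 CPM in prp2-1 and 90.1 ± 17.3 in WT, without overlap, and its log2 change was 0.83 ± 0.24 (SE, adjusted p = 0.0218, edgeR). This call ended when replicate A of prp2-1 (adjusted p = 0.0663) or replicate A or B of WT (0.0832 and 0.0803) was left out. YRA1 averaged 472 ± 106 CPM in prp2-1 and 327 ± 23.0 in WT, with a log2 change of 0.53 ± 0.19 (adjusted p = 0.0491). The YRA1 call ended when replicate A or C of prp2-1 (adjusted p = 0.0891 and 0.0697) or any of the 3 WT libraries (0.115, 0.0924 and 0.140 for A, B and C) was left out. SUS1 had log2 changes of total reads of 0.49 for intron 1 and 0.36 for intron 2 (adjusted p = 0.0748 and 0.223), and both passed without prp2-1 replicate B (0.65 and 0.56, adjusted p = 0.0243 and 0.0313). MTR2 had 0.33 (adjusted p = 0.0774). Scaling to the 12 introns over 98% unspliced in WT moved the median of all introns by -0.27, and then neither total passed (adjusted p = 0.0669 for DBP2 and 0.319 for YRA1).

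The members were then set beside introns that share a feature with them, as a description. Outside ribosomal protein genes, 8 tested introns were longer than 500 bases. Apart from YRA1, DBP2 and the YHL050C and YJR079W introns, which had no spliced reads, these were in GCR1, MPT5, NOG2 and GLC7. GLC7 encodes a protein phosphatase, NOG2 a GTPase of ribosome assembly, GCR1 an activator of glycolytic genes and MPT5 an mRNA-binding protein of the Puf family. The log2 changes of their ratios were 5.14 (GCR1), 6.34 (MPT5), 3.77 (NOG2) and 4.57 (GLC7), all above those of YRA1 and DBP2. Spliced reads fell in GCR1, MPT5 and GLC7. In NOG2, as in DBP2, they did not pass the test (log2 change -1.14, adjusted p = 0.305, edgeR). By branch site letters, the 10 tested introns outside ribosomal protein genes with GACTAAC, YRA1 among them, had a median of 27.8% unspliced reads in WT (range 6.61% to 89.3%). Of the 3 with TACTGAC and no TACTAAC, SUS1 intron 1 was the middle one at 33.4% (reads summed over libraries, range 24.9% to 71.7%). The 121 with TACTAAC had a median of 7.11%, with values from 0% to 100%.

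The introns most like each member were found by the Euclidean distance between log2 ratios over the 6 libraries. For SUS1 intron 1 these were YSF3, whose product is a subunit of the SF3b splicing complex (distance 1.07), the DNA repair gene RAD14 (1.19) and BET4 (1.49), where the median over other introns was 12.1. SUS1 intron 2 was nearest to CGI121 (0.73), TDA5 (1.29) and intron 1 of the tRNA deaminase gene TAD3 (1.33). DBP2 was nearest to CIN2, of tubulin folding (1.39), intron 2 of RPS22B (1.49) and YIP3 (1.73). CIN2 was 46.6% ± 10.8 unspliced in prp2-1 and 15.8% ± 6.28 in WT, a closeness to DBP2 by which it was picked. The likeness is of ratios only. Spliced reads fell in CIN2 (log2 change -1.57, adjusted p = 0.0145, edgeR) and RPS22B intron 2 (-0.91, 0.00130), and did not pass in YIP3 (-0.12, 0.742). YRA1 was nearest to YKR005C (2.37), PCH2 (3.02) and NCE101 (3.12). Their log2 changes of the ratio were 5.74, 4.38 and 4.42, all above the 2.61 of YRA1, and YKR005C had no spliced reads in prp2-1. MTR2 was nearest to GIM4, a prefoldin subunit gene (2.67), which was 99.98% ± 0.0372 unspliced in prp2-1 and 99.8% ± 0.136 in WT, and then to COX5B (3.02) and YJR112W-A (4.40), which had no spliced reads.

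A list of other genes along the path of an mRNA was set beside the export genes, picked for function from the literature. Of its 9 genes, 8 had a tested intron, and CBC2 had none in the table. In all 8 the unspliced to spliced ratio rose and spliced reads fell (edgeR), with medians of 6.69 and -3.39 on the log2 scale. Over all tested introns 93.4% rose in the ratio and 57.7% fell in spliced reads, and outside ribosomal protein genes spliced reads fell in 142 of 171, so counts of 8 are near the background. In the 5 export introns the medians were 4.02 and -3.69. Among the genes of cap binding, decay and RNA binding, STO1, the large subunit of the nuclear cap-binding complex, was 81.3% ± 4.01 unspliced in prp2-1 and 13.5% ± 0.436 in WT. NMD2, a nonsense-mediated decay factor, was 87.0% ± 1.39 in prp2-1 and 15.4% ± 1.09 in WT. The Lsm ring gene LSM7 was 89.1% ± 1.95 in prp2-1 and 5.93% ± 0.781 in WT, and LSM2 was 83.9% ± 13.3 in prp2-1 and 2.97% ± 1.84 in WT. STO1 and NMD2 thus had WT levels near that of DBP2 and higher levels than DBP2 in prp2-1. MPT5 was 99.96% ± 0.0617 unspliced in prp2-1 and 95.9% ± 0.764 in WT, and it was the list's intron whose unspliced reads did not pass (log2 change -0.33, adjusted p = 0.229). The spliceosome genes MUD1 and SMD2 were 98.8% ± 0.367 and 99.2% ± 0.719 unspliced in prp2-1, against 13.7% ± 1.09 and 22.6% ± 6.86 in WT. YSF3, the third of them, was 95.9% ± 0.334 unspliced in prp2-1 and 40.6% ± 6.799 in WT, with a log2 change of the ratio of 5.11. Total reads rose in 3 of the 8 (LSM7, MUD1 and SMD2) and fell in LSM2, where 19.7% of all tested introns rose and 23.7% fell.

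**Figure D5:**
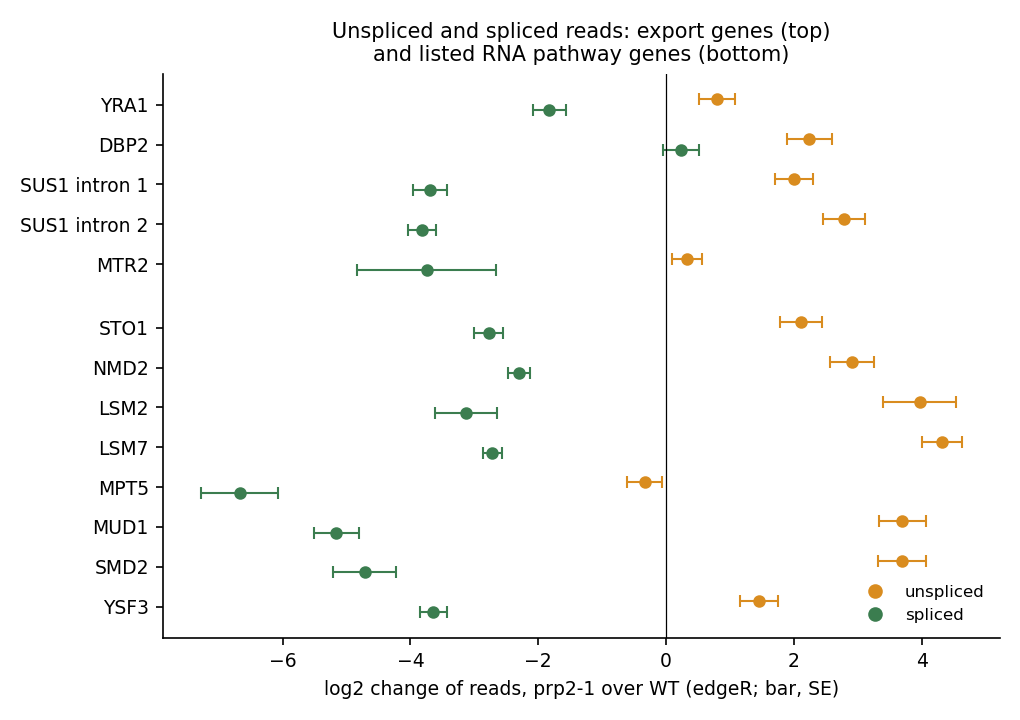
The log2 change of unspliced (orange) and spliced (green) reads, prp2-1 over WT (x axis, edgeR; bars are the SE), for the 5 introns of the export genes at the top and the 8 tested introns of the listed RNA pathway genes below. Spliced reads lie left of 0 in every intron but DBP2 (0.23), and unspliced reads lie right of 0 in every intron but MPT5 (-0.33).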

How the data were processed

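Counts were raw as deposited by the authors: spliced (mature) and unspliced (premature) reads per intron and library, not normalized. Per the submitters' processing notes, fastp 0.19.5, HISAT2 2.2.1, SAMtools and build R64 were used. The rule that made a read spliced or unspliced, and any removal of duplicates, are not given in the sources used here. A second deposited table holds counts after 5 random draws of 200000, 400000 or 800000 reads per library; the column headed as the seed was read as the depth, since the library totals follow it.

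An intron was tested when its spliced plus unspliced reads averaged at least 10 over the 6 libraries, which kept 274 introns, all 5 members among them. The ratio was tested in edgeR 4.0.16 (R 4.3.3) by its quasi-likelihood test, with spliced and unspliced counts as separate columns and terms for the library, the read type and read type by genotype. Total, unspliced and spliced reads were tested with a genotype term, library totals and TMM factors of total reads (0.967 to 1.02). P-values were adjusted by Benjamini-Hochberg over all tested introns, with a threshold of 0.05. The SE is the absolute log2 change over the square root of F. It draws on a spread that edgeR pools over introns, separately for each test. For MTR2, almost all unspliced, it was 0.235 in unspliced and 0.135 in total reads. Log2 ratios per library used a pseudocount of 0.5. The ratio and total fits were tried on simulated counts with the same spread in every intron. The spliced and unspliced fits were not. DESeq2 1.42.0 and limma 3.58.1 served as alternatives. Named introns are the members, their 3 nearest introns by ratio and a list of 9 genes; those compared by length are every one over the limit, a limit set after the values were seen. Members and lists were chosen with earlier results of these data known.

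Intron positions are gaps between coding exons of the R64 RefSeq annotation, the build the submitters name.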

Additional observations from a re-analysis of the deposited data

How the results depend on the processing

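The ratio called 256 introns higher and 0 lower (edgeR; DESeq2 also called 0 lower), and left-out libraries gave 251 to 258 higher and 0 to 1 lower. Limma called 1 lower with either pseudocount. TMM over spliced and unspliced columns together, which forces their levels towards each other, moved the median ratio change by -2.44 and called 14 lower; under it YRA1 changed by 0.18 (adjusted p = 0.602), MTR2 by 1.55 (0.133) and DBP2 by -0.35 (0.434). For drawn counts, only draw 1 of the 5 at the lowest depth was fitted, here and below. In it MTR2 changed by 2.15 (edgeR adjusted p = 0.257), with spliced reads at -1.87 (0.370), and DBP2 by 1.15 (0.120). Fewer reads enter this test, and the mean unspliced percent of DBP2 in WT ran from 2.22% to 31.1% over the 5 draws.

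Left-out libraries gave log2 ratio changes of 2.39 to 2.89 in YRA1, 1.85 to 2.45 in DBP2 and 3.32 to 6.46 in MTR2, all past the threshold. They gave 33 to 50 introns higher in total reads and 7 to 17 higher in spliced reads, against 54 and 17 with all libraries. In total reads they gave 0.36 to 0.69 for YRA1, 0.62 to 0.99 for DBP2, 0.36 to 0.65 for SUS1 intron 1 and 0.20 to 0.56 for SUS1 intron 2. In spliced reads they gave -6.35 to -2.95 for MTR2 and -0.11 to 0.43 for DBP2. The total of YRA1 also lost its call without TMM (0.49, adjusted p = 0.0737), in the drawn counts (0.54, 0.0967) and when scaled to 12 introns over 98% unspliced in WT (0.24, 0.319). That scaling gave DBP2 a total change of 0.56 and a spliced change of -0.023, with 27 introns higher in total and 2 in spliced reads. DESeq2 called the totals of SUS1 intron 1 (0.52, adjusted p = 0.0293) and MTR2 (0.36, 0.0219). The drawn counts called 42 introns lower in total and 11 higher in spliced reads.

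The unspliced percent of SUS1 intron 1 in WT was 38.2%, 39.0% and 38.3% in the drawn counts at 200000, 400000 and 800000 reads, against 33.5% in the full table. DBP2 in WT was 19.8%, 18.7% and 20.3%, against 17.1%. At 800000 reads, 173 unspliced WT reads of SUS1 intron 1 and 31.2 of DBP2 were drawn on average, where the full table gives 142 and 25.5, a factor of 1.22 in both. The cause was not tested.

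With the replicate letter as a block, the total of YRA1 was 0.51 (adjusted p = 0.0730), and no other call of a member was lost. Same-letter libraries correlated by 0.092, 0.205 and 0.272 in their deviations of the log2 ratio, and libraries of different letters by -0.286 to 0.083. In log2 total reads the same-letter values were 0.275, -0.065 and 0.022, and the others -0.286 to 0.234. Whether the letters mark pairs is thus not settled, and the main tests used no block.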
